A study of Mus musculus with 2 samples.

Results

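Rod bipolar cell nuclei of the mouse retina are described here, in nuclei recovered from a frozen section by SeekSpace, a method that gives each nucleus an RNA profile and a position on a capture chip. A nucleus was taken as rod bipolar when it had at least 200 detected genes, under 10% of its unique molecular identifiers (UMIs, counts of captured RNA molecules) from mitochondrial genes, at least 4 UMIs of Trpm1, Grm6 and Gpr179 together, at least 2 UMIs of Prkca, and 0 UMIs of the pigment and pigment epithelium genes Tyr, Dct, Mlana and Rpe65. The members were thus chosen by their own UMI values of these genes. Of 17285 barcodes, 16867 passed the first conditions on genes and mitochondrial UMIs, and 901 of those met all of them, 5.34% of the nuclei kept (95% Clopper-Pearson interval 5.01 to 5.69%). The study concerns C57BL/6J mice heterozygous for Prph2 C213Y, an allele of a photoreceptor outer segment protein, and age- and sex-matched wild-type mice, with spatial data at 6 months. Both deposited libraries, expression and spatial barcodes, carry the name T1, came from a 10 µm section of 1 eye of an untreated mouse per the labels, and have no genotype label. No genotype was therefore compared or inferred, there are no groups and no replicates, and no p-value was computed.

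Rod bipolar cells carry the rod signal from the outer to the inner retina. Rods release glutamate in darkness, and the bipolar dendrite senses it through the metabotropic receptor mGluR6, encoded by Grm6. The receptor works through the G protein Go to keep the cation channel TRPM1 closed, and light opens that channel by stopping glutamate release. ON cone bipolar cells use the same cascade for cones. Protein kinase C alpha, encoded by Prkca, is the classical marker that sets rod bipolar cells apart from them, and the rod bipolar axon contacts AII and A17 amacrine cells rather than ganglion cells.

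Levels are given as CPM, a gene's UMIs per 1000000 UMIs of a class, pooled over its nuclei. Intervals in parentheses are exact 95% Poisson intervals. They cover counting error alone, because nuclei of 1 section are not replicates. CPM was not divided by gene length, so levels of different genes were not compared. Comparison classes were set by other marker rules. The 487 ON cone bipolar nuclei met the same cascade condition with 0 Prkca UMIs. The 131 OFF cone bipolar, 1433 rod, 524 amacrine and 620 Slc1a3, Glul and Rlbp1 nuclei had at most 1 Prkca UMI. Those nuclei also had at most 1 UMI of Trpm1, Grm6 and Gpr179 together. Except for amacrine nuclei, they had at most 1 UMI of Gad1, Gad2 and Slc6a9 together. Rod bipolar members had no such upper limit on genes of other neurons or glia, so these comparisons are uneven by rule. The Slc1a3, Glul and Rlbp1 class was meant for Müller glia, but muscle RNA was also high in it. The muscle protein gene Ttn was at 8064 CPM there, so the class is named by its genes. The matrix held 55843593 UMIs. The median rod bipolar nucleus had 4043 UMIs (402 to 87083) and 1834 genes, against 3241 UMIs in ON cone bipolar and 971 in rod nuclei. No doublet caller was applied.

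The nuclei lay in 4 ring-shaped tissue pieces, numbered here from left to right, although the labels speak of 1 section. Rod bipolar nuclei numbered 279, 187, 227 and 208 in pieces 1 to 4. Piece 4 stood apart: Xist, the RNA that coats the inactive X chromosome, was at 61.5, 85.2, 41.2 and 1118 CPM in rod bipolar nuclei of pieces 1 to 4. The 4 Y-linked genes Uty, Ddx3y, Kdm5d and Eif2s3y summed to 195, 183, 225 and 58.0 CPM. These values go against the label of 1 eye for all 4 pieces, and the main counts of genes over all members are also given without piece 4. Whether the pieces share an animal or genotype was not given, so values of pieces are set side by side and never grouped.

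**Figure D1:**
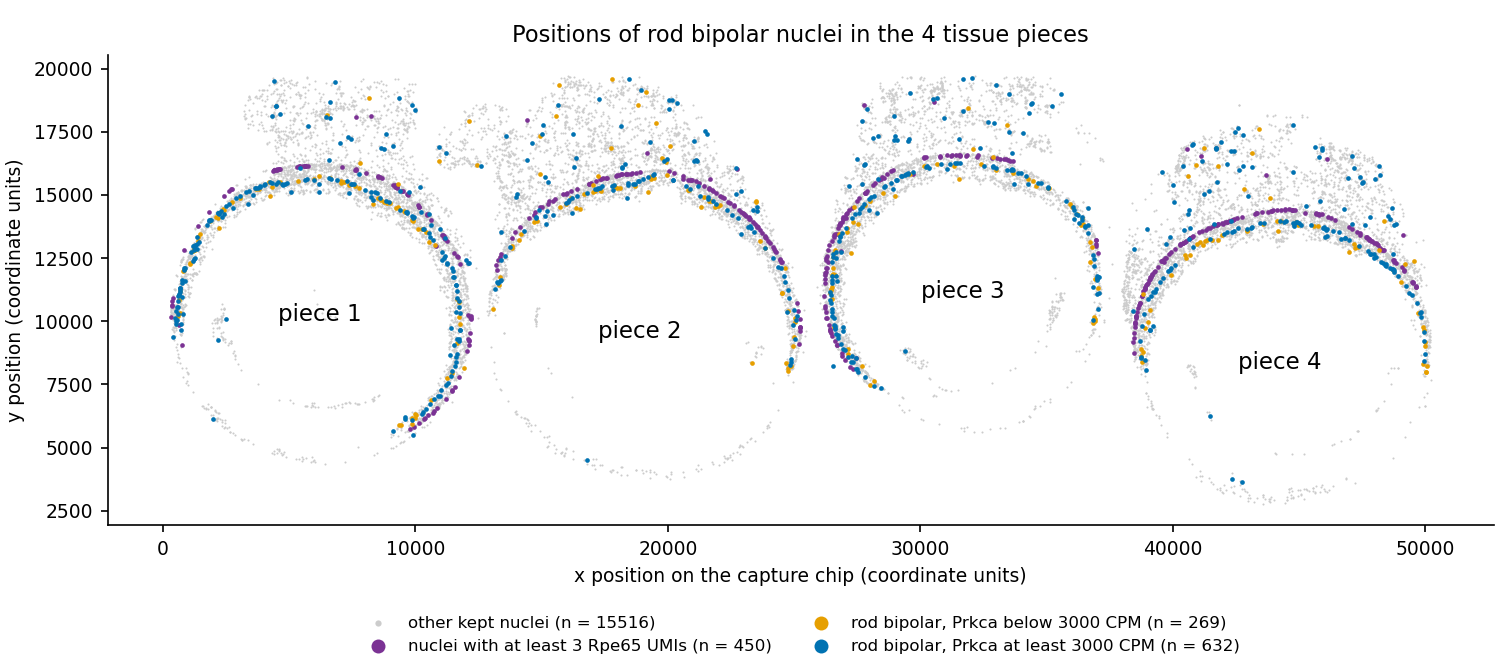
Positions of the 16867 kept nuclei on the capture chip, in coordinate units. Blue and orange points are the 901 rod bipolar nuclei with Prkca at least and below 3000 CPM, purple points are nuclei with at least 3 Rpe65 UMIs, and grey points are all others. Rod bipolar nuclei follow the inner side of the Rpe65 line in each of the 4 pieces, and some are scattered outside the rings.

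The rule used Prkca, Trpm1, Grm6 and Gpr179, so their levels describe the choice and are no finding. Prkca stood at 9150 CPM over all members, and by piece at 9780, 7707, 8471 and 10834 CPM. Trpm1, the channel, was at 4095 CPM, Gpr179, the orphan receptor that anchors the cascade's regulators, at 736 CPM, and Grm6 at 480 CPM. Near the thresholds, 57 members had exactly 4 cascade UMIs and 53 nuclei were left out at 3. Likewise 68 members had exactly 2 Prkca UMIs and 94 nuclei were left out at 1. A further 134 nuclei were left out for pigment or Rpe65 UMIs, 48 of them for a lone UMI. Prkca alone would not have picked the class: 8107 kept nuclei had at least 2 Prkca UMIs, and rods taken without a limit on Prkca held 1987 CPM of it. In the mm10 genome, GRCm38.p6 in RefSeq's naming, Prkca spans chr11:107933387-108343888, Trpm1 chr7:64153835-64269772, Grm6 chr11:50850369-50866208 and Gpr179 chr11:97332109-97352356.

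The members were not uniform in rod bipolar markers. Prkca per nucleus spanned a wide range: 37 members lay between 2000 and 3000 CPM, 300 between 20000 and 40000 CPM, and 74 below 500 CPM. A line drawn at 3000 CPM after seeing these values left 632 members at or above it, 70.1% of the class, called Prkca-high here, and 269 below it. It cuts a range in which 84 members lay between 2000 and 5000 CPM, and whether more than 1 cell type underlies that range was not tested. The 12 rod bipolar markers, rule genes included, summed to 27439 CPM in Prkca-high and 3596 CPM in Prkca-low members. Their sum in ON cone bipolar nuclei was 4429 CPM. These sums include Prkca, by which the members were split and which ON cone bipolar nuclei lack by rule. The sums therefore cannot show whether the other markers differed. Of the markers the rule did not use, Car8 was at 570 CPM in Prkca-high and 61.6 CPM in Prkca-low members. Lrrtm4 was at 3137 and 382 CPM, and the homeobox gene Sebox at 101 and 12.6 CPM. Prkca-low members also had the higher median depth, 6354 UMIs against 3739.5.

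The Prkca-low members held more RNA of amacrine, ON cone bipolar and Müller glia markers, but not of rod markers. The 12 rod markers summed to 1704 CPM in Prkca-low and 1741 CPM in Prkca-high members. The 8 amacrine markers summed to 1655 CPM in Prkca-low and 482 CPM in Prkca-high members, and to 4502 CPM in amacrine nuclei, with none of the 8 at 0 in any of these. The 14 ON cone bipolar markers found summed to 1434 and 676 CPM, against 2684 CPM in ON cone bipolar nuclei. The 8 Müller glia markers summed to 2344 and 1728 CPM, against 7579 CPM in the class named by Slc1a3, Glul and Rlbp1. Markers were also called higher or lower than in ON cone bipolar nuclei (the call is defined below). Of 14 ON cone bipolar and 12 OFF cone bipolar genes, 0 were called higher, and 5 and 3 lower. Of the amacrine and Müller glia genes, 2 of 8 and 1 of 8 were called higher and 0 lower. Over all genes tested, 1.71% were called higher and 0.744% lower. Over Prkca-high members 0 genes of these 4 lists were called higher, against 1.77% of all genes. Of 12 rod genes, however, 4 were called higher in all members and 4 in Prkca-high members. The part of other cell types in the results was not tested. Counts of called genes below are given for all members and for Prkca-high members.

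Across 5 ranges of Prkca the other markers moved in opposite directions. Lrrtm4 was at 252 CPM in the 146 members below 1000 CPM of Prkca, and at 565, 1419, 3367 and 5469 CPM in the ranges up to 3000, 10000 and 20000 CPM and above. Car8 went from 37.6 to 989 CPM and Rgs7 from 498 to 3863 CPM over the same ranges. Nxph1, a neurexin ligand that marks ON cone bipolar types, went the other way, from 894 CPM to 3.64 CPM. The GABA-synthesis gene Gad1 went from 231 to 4.55 CPM and the glycine transporter gene Slc6a9 from 197 to 8.20 CPM. The 309 members above 20000 CPM thus held the highest levels of rod bipolar markers and nearly none of these genes. The 132 members between 3000 and 10000 CPM had the highest median depth of the ranges, 8689 UMIs, and held 76.2 CPM of Gad1 and 1709 CPM of Glul.

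**Figure D2:**
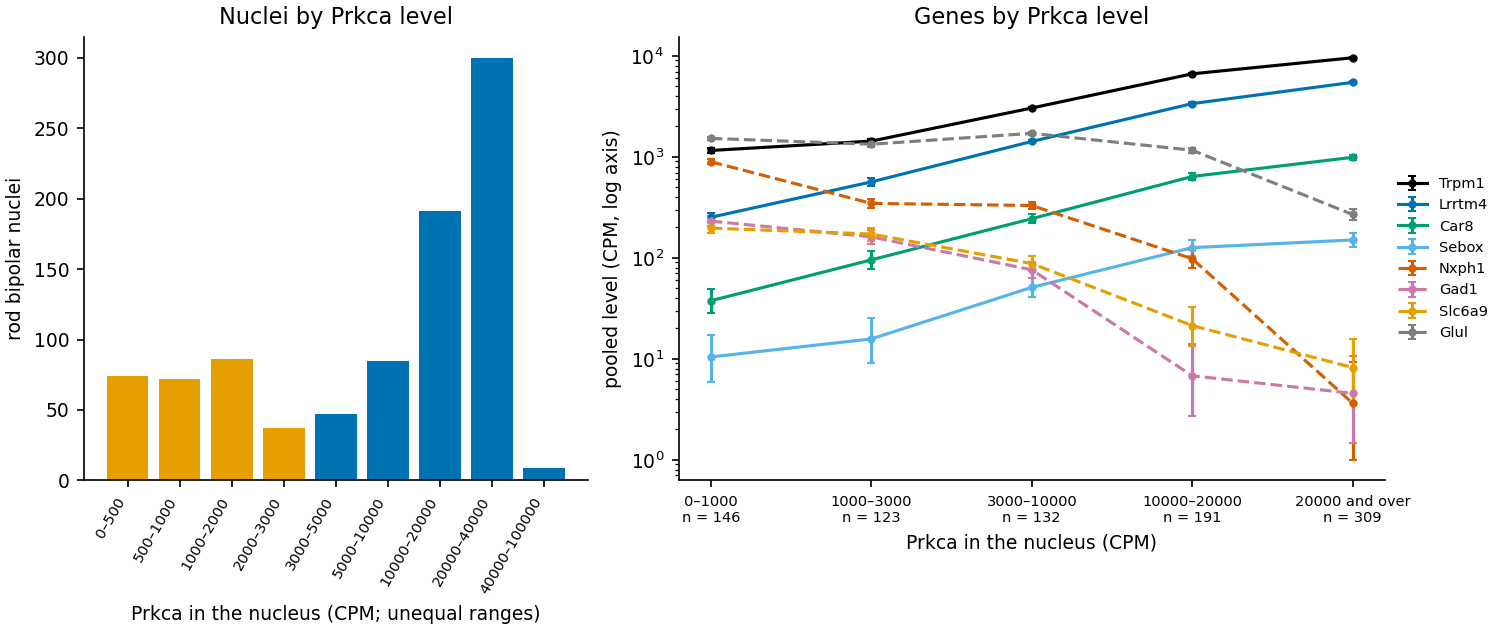
Left, number of rod bipolar nuclei in unequal ranges of Prkca (CPM in the nucleus), orange below and blue from 3000 CPM, with 37 nuclei between 2000 and 3000 CPM and 300 between 20000 and 40000 CPM; heights are not scaled to the width of a range. Right, pooled level (CPM, log axis, exact 95% Poisson intervals) of 8 genes in 5 ranges of Prkca: Trpm1, Lrrtm4, Car8 and Sebox (solid) are highest at the top of the range, and Nxph1, Gad1, Slc6a9 and Glul (dashed) are lowest there.

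Genes were next compared over the 6 classes. A gene was called highest in rod bipolar nuclei when its lower bound there reached 2 times its upper bound in each of the remaining classes, with at least 20 UMIs over rod bipolar and ON cone bipolar nuclei. Leaving out the genes of the membership rule, 33 genes were called over all members, 0.248% of 13305 tested. All 33 were higher than in ON cone bipolar nuclei in each of the 4 pieces. The pieces are parts of the sums that made the calls, so this is no separate support. Prkca-high members gave 64 genes, 0.524% of 12217, and those included all 33. Without piece 4 the count over all members was 30. It was 78 without nuclei that hold at least 2 amacrine UMIs (Gad1, Gad2 and Slc6a9) or at least 2 glia UMIs (Slc1a3, Glul and Rlbp1). That filter acted on 2 classes and left 434 rod bipolar and 341 ON cone bipolar nuclei. Of the 33, 7 are gene models with no established name. The widest margin among named genes was that of Wscd2, a sulfotransferase family gene, at 581, 527, 517 and 580 CPM in pieces 1 to 4 against at most 32.8 CPM in any other class.

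Among signalling genes, Car8 encodes a carbonic anhydrase relative that has lost its enzyme activity and binds the inositol trisphosphate receptor. It was at 441, 319, 332 and 371 CPM in pieces 1 to 4, against at most 23.8 CPM in any other class. Wnt5b, a secreted Wnt ligand, was at 283, 175, 221 and 289 CPM, with 22.1 CPM as the highest level elsewhere. Il1rap, the accessory subunit of the interleukin-1 receptor, was at 231, 217, 174 and 239 CPM, with at most 25.5 CPM elsewhere. For Car8, Wnt5b and Il1rap each of the 4 pieces lay above the highest level elsewhere. These genes were chosen for that margin over the pooled pieces. Pik3r5, a regulatory subunit of phosphoinositide 3-kinase gamma, was at 50.1 CPM over all members and 76.7 CPM in Prkca-high members, against 7.90 CPM in ON cone bipolar nuclei. Kalrn, a guanine nucleotide exchange factor of synapses that was picked after its values were seen, was at 726 CPM against 197 CPM in OFF cone bipolar nuclei, the class nearest to it.

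Rgs7 and Pcp2, both of this set, tune G protein signals. Rgs7, which speeds the GTPase of the Go subunit in the mGluR6 cascade, was at 1823, 1384, 1533 and 1846 CPM in pieces 1 to 4, against 622 CPM in ON cone bipolar and 750 CPM in amacrine nuclei. Pcp2, a small modulator of Go and Gi proteins, was at 377, 270, 264 and 444 CPM, against 99.3 CPM in ON cone bipolar nuclei. In both genes the lowest piece stayed above every other class, although both were chosen for their margin over the pooled pieces.

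The set also held membrane and adhesion genes. Lrrtm4, a leucine-rich repeat synaptic organiser, was at 2389, 1751, 1747 and 2335 CPM, 2049 CPM overall (2013 to 2085), and the next class was amacrine at 714 CPM. Vstm2b, an immunoglobulin-domain membrane protein, was at 266 CPM against 56.3 CPM in amacrine nuclei, and had 0 UMIs in OFF cone bipolar nuclei. Mdga1, a membrane-anchored protein that binds neuroligins, was at 259 CPM against 51.3 CPM in ON cone bipolar nuclei. Tpbg, a leucine-rich repeat glycoprotein also picked after its values were seen, was at 47.5 CPM against 10.3 CPM at most elsewhere. The ion channel genes of the set were Ano3, of the anoctamin family, at 167 CPM against 18.4 CPM at most, the BK channel subunit Kcnmb2, likewise picked afterwards, at 538 against 174 CPM, and the calcium channel subunit Cacna2d3 at 751 against 292 CPM.

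Shares of nuclei with a UMI were compared after thinning each nucleus to 1000 UMIs, which left out 14 of 901 rod bipolar, 13 of 632 Prkca-high, 12 of 487 ON cone bipolar and 760 of 1433 rod nuclei. Lrrtm4 was seen in 66.6% of rod bipolar nuclei (63.4 to 69.7%, Clopper-Pearson), 87.6% of Prkca-high members and 4.0% of ON cone bipolar nuclei (2.43 to 6.18%). Its share in rods was 1.04% (0.419 to 2.13%). The rod class was limited by rule to at most 1 Prkca UMI and at most 1 cascade UMI. That share therefore cannot measure free RNA. Before thinning the shares were 77.4, 95.9, 8.83 and 1.26% at median depths of 4043, 3739.5, 3241 and 971 UMIs. Car8 was seen in 38.8% of thinned rod bipolar, 1.05% of ON cone bipolar and 0.446% of rod nuclei, and in 68.6, 4.31 and 0.419% before thinning. Sebox reached 9.02% of thinned rod bipolar nuclei against 0.211% of ON cone bipolar nuclei, and 30.9 and 1.03% before thinning.

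Cep112, a centrosomal gene, was at 581, 513, 435 and 694 CPM in pieces 1 to 4 and 837 CPM in Prkca-high members, against 17.5 CPM in ON cone bipolar nuclei. It lies on the plus strand at chr11:108425215-108860615, 81327 bases from the Prkca span on its higher-coordinate side. Apoh, which lies between the pair, was at 9.59 CPM in Prkca-high members with 0 UMIs in ON cone bipolar nuclei. Gm11655, inside the Prkca span, was at 8.26 CPM with 0 UMIs. The genes on the other side were closer between classes: Helz was at 152 and 203 CPM, Psmd12 at 25.3 and 20.3 CPM, and Cacng5 at 12.3 and 16.4 CPM in Prkca-high and ON cone bipolar nuclei. How the counting used strand was not stated, and whether any of this RNA runs on from a neighbour was not tested.

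Promoter sequence was read for the called genes from RefSeq (GRCm38.p6), which had an entry for 24 of the 33 genes. The bases upstream of 2 of them are shown, Sebox and Pcp2, since both windows lie outside the annotated gene and both genes mark the class. Windows are 5′ to 3′ on the gene's strand and end at the base before the start: chr11:78503263-78503512 on the plus strand for Sebox, and chr8:3625548-3625797 on the minus strand for Pcp2.
Sebox: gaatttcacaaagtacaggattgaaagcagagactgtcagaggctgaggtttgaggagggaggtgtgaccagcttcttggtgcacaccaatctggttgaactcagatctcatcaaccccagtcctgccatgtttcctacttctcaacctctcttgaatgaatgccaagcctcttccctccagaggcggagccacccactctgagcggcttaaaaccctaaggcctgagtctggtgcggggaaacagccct
Pcp2: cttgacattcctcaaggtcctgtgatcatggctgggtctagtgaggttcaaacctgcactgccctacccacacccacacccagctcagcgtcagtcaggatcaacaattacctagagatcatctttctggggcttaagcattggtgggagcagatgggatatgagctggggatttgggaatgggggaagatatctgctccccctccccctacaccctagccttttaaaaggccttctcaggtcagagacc
All letters are in lower case because neither window holds any of the 4 motifs searched. These were GGATTA, bound by OTX2 and CRX, its shorter core GATTA, which overlaps it, the homeodomain site TAATTA and the E-box CATATG, each on both strands. Over the 250 bases upstream, GGATTA was in 1 of 24 promoters (4.17%) against 6.38% of all 27025 promoters. GATTA was in 3 of 24 (12.5%) against 20.2%, and TAATTA and CATATG were in 0 of 24 against 4.90 and 3.47%. For the 64 genes of Prkca-high members, 45 of them with a promoter entry, GGATTA was in 3 (6.67%), GATTA in 5 (11.1%) and the other motifs in 0. These shares describe letters in a window and say nothing of binding by the factors.

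Rod bipolar nuclei were then compared with ON cone bipolar nuclei alone, their nearest relatives in these data. By the same ratio of bounds, 227 genes were called higher over all members, 1.71% of 13305 tested, and 99 lower, 0.744%. Prkca-high members gave 216 higher, 1.77% of 12217, and 212 lower, 1.74%; 162 of the higher and 97 of the lower genes were shared with the counts over all members. Of the 227 and 99, 223 and 88 had the same direction in each of the 4 pieces, which are parts of the sums that made the calls. Without piece 4 the counts were 193 and 83. The higher count was 120 when nuclei were thinned to 1000 UMIs and 132 within the retinal band (nuclei near the pigment epithelium line, defined below), where 50 were lower. Without nuclei of either class that hold at least 2 amacrine or 2 glia UMIs, 306 were lower, and among members of at most 8000 UMIs 210 were. In 5 of the higher and 11 of the lower genes of the first count, most UMIs came from 1 nucleus. The 2 classes differ by rule in Prkca. With ON cone bipolar nuclei of 0 or 1 Prkca UMI, 186 genes were higher, 175 of them shared with the 227, and 89 were lower.

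The leading higher genes included Lrrtm4 (27.7-fold) and Cep112 (31.1-fold). Asic2, a proton-gated sodium channel, was at 5692 CPM in rod bipolar and 496 CPM in ON cone bipolar nuclei, although amacrine nuclei held more, 7450 CPM. Slc4a4, a sodium bicarbonate cotransporter, was at 93.1 against 3.38 CPM. Sorcs3, a sorting receptor, was at 177 against 11.3 CPM. The other leaders were less even over the members: Olfm3 was at 65.6 CPM in Prkca-low and 5.59 CPM in Prkca-high members, Myh13, a muscle myosin, came from 8 nuclei, and Hs6st3 was seen in 115 nuclei and was at 545 CPM in amacrine nuclei.

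**Figure D3:**
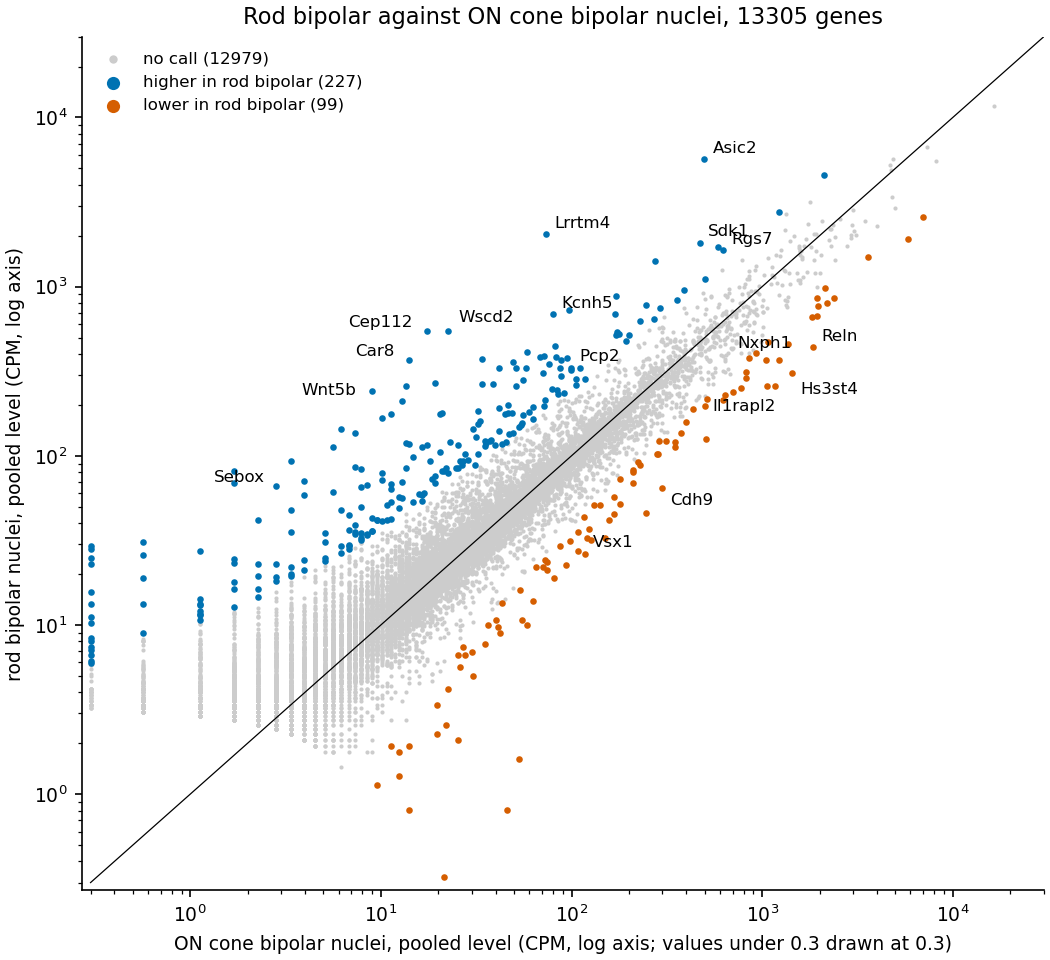
Pooled level of 13305 genes in ON cone bipolar (x) and rod bipolar nuclei (y), in CPM on log axes, with the line of equal level. Blue marks the 227 genes called higher and orange the 99 called lower. Lrrtm4, Cep112, Wscd2 and Car8 stand well above the line, and Hs3st4, Cdh9, Nxph1 and Vsx1 below it.

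The genes lower by the widest margins included the lens gene Bfsp1, the muscle gene Myh2 and the haemoglobin genes Hba-a1 and Hba-a2, at 14.1 to 53.0 CPM in ON cone bipolar and at most 2.58 CPM in rod bipolar nuclei. Other genes among them act in synapse formation and adhesion. Hs3st4, a heparan sulphate sulfotransferase, was at 335, 300, 315 and 261 CPM in pieces 1 to 4, against 1437 CPM. Il1rapl2, a synaptic receptor of the interleukin-1 receptor family, was at 258 against 1171 CPM, and the secreted protein gene Reln at 440 against 1857 CPM. The cadherins Cdh8 and Cdh9 were at 258 and 64.4 CPM against 1062 and 298 CPM. Nxph1 was at 367 CPM against 1223 CPM over all members, 667 CPM in Prkca-low and 171 CPM in Prkca-high members. Each of these 6 genes was at a higher level in Prkca-low than in Prkca-high members.

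For the lists of pathway genes that follow, the median difference over all genes tested was 0.07 on the log2 scale over all members and 0.01 over Prkca-high members. Over all genes tested, 1.71% were called higher and 0.744% lower in all members, and 1.77 and 1.74% in Prkca-high members. These shares are the background for the counts of each list below. The lists hold the other genes of each pathway whatever their direction, and were written with earlier results of these data known.

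The mGluR6 cascade list has 17 genes, 14 of them outside the rule. Of those 14, 2 were called higher (Rgs7 and Pcp2) and 0 lower, in all members and in Prkca-high members, at a median log2 difference of 0.09 and 0.25. Gnao1, the Go alpha subunit, was at 1994 CPM (2621 in Prkca-high members) against 1476 CPM in ON cone bipolar nuclei. Its partners Gnb3 and Gng13, the beta and gamma subunits, were at 310 and 181 CPM against 319 and 177 CPM. Of the regulator complex, Rgs11 was at 166 against 206 CPM, Gnb5 at 245 against 222 CPM and the anchor Rgs7bp at 126 against 221 CPM. Rgs7 was thus called, and Rgs11, which does the same work on Go, was not. Nyx, the leucine-rich repeat protein nyctalopin that holds TRPM1 at the dendrite, was at 75.4 against 118 CPM. Its relative Lrit3 was at 12.2 CPM, but rods held 101 CPM.

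**Figure D4:**
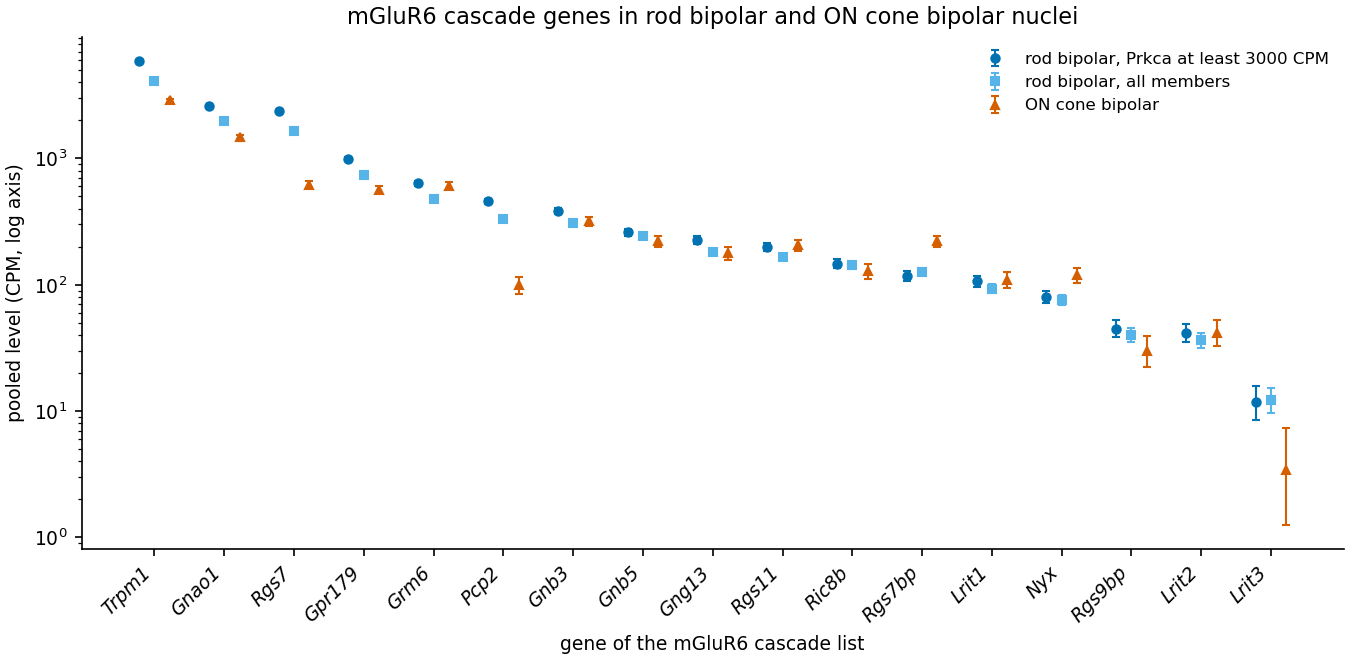
Pooled level (CPM, log axis, exact 95% Poisson intervals) of the 17 genes of the mGluR6 cascade list in Prkca-high rod bipolar, all rod bipolar and ON cone bipolar nuclei. Trpm1, Grm6 and Gpr179 chose the members. Rgs7 and Pcp2 are the genes outside the rule that were called higher in rod bipolar nuclei, and the order of genes is for display alone.

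Prkca itself was used by the rule, and the rest of its pathway was not. Of 21 genes tested in the list of protein kinase C and diacylglycerol signalling, 0 were called higher and 1 lower over all members, and 0 and 3 over Prkca-high members. Prkce, a calcium-independent isoform, was at 1473 against 1072 CPM in ON cone bipolar nuclei. Prkcb, the other conventional isoform measured, was at 468 CPM, with 340 CPM in Prkca-high members, against 985 CPM, and was called lower for Prkca-high members. The phospholipase gene Plcb1 was at 122 against 289 CPM, called lower in both, and Plcb4 at 770 against 995 CPM. Dgkg, a diacylglycerol kinase that ends the signal, was at 87.9 CPM in Prkca-high members against 218 CPM, while Dgki was at 1149 against 932 CPM.

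Of 29 bipolar transcription factors tested, 2 were called higher and 3 lower, and over Prkca-high members 2 and 4 of 27. Sebox was higher, at 72.9, 64.5, 45.3 and 90.5 CPM in pieces 1 to 4 against 2.82 CPM. Esrrb was also higher, at 116 against 17.5 CPM, but rods held 1842 CPM of it. Lower were Vsx1 and Lhx3, known from cone bipolar types, at 26.4 and 21.1 CPM against 117 and 74.5 CPM, and Zfhx4, at 311 against 821 CPM. Factors that bipolar cells share were nearer: Otx2 was at 184 against 234 CPM, and Isl1, of ON types, at 210 against 201 CPM. Bhlhe23, required for rod bipolar maturation, was at 30.3 against 14.7 CPM, or 39.9 CPM in Prkca-high members, and was not called.

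In the adhesion and wiring list, the longest, 5 of 55 genes were called higher and 6 lower, and 6 and 12 of 53 over Prkca-high members. Sdk1, a sidekick adhesion protein of synaptic layers, was at 1818 against 470 CPM, and Sdk2 at 944 CPM in Prkca-high members against 400 CPM. The contactins split: Cntn4 was at 1412 against 274 CPM and Cntn6 at 200 against 46.3 CPM, both called higher, and Cntn5 at 981 against 2127 CPM, called lower. Of the teneurins Tenm2 was lower, at 1503 against 3581 CPM, and Tenm3 stood at 1708 against 1794 CPM. The guidance receptors Dcc and Unc5d were at 861 and 663 CPM against 1935 and 1821 CPM, both called lower. Elfn1, at 41.6 against 9.59 CPM, is a rod synapse gene at 667 CPM in rods.

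Rod bipolar terminals receive GABA and glycine, and the receptor list for both had 1 call higher and 1 lower of 23 genes, and 0 and 3 of 22 over Prkca-high members. The subunits of GABA-C receptors, which the class is known for, were not called: Gabrr1 was at 225 against 227 CPM and Gabrr2 at 403 against 848 CPM. Gabrb2 was lower, at 79.7 against 209 CPM. The call higher was Gabrg3, at 121 CPM, but it was at 232 CPM in Prkca-low and 48.2 CPM in Prkca-high members, against 45.1 CPM in ON cone bipolar and 1389 CPM in amacrine nuclei. The glycine receptor gene Glra1 was at 230 against 283 CPM.

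Of the glutamate receptor genes, over all members 4 of 30 were called higher and 2 lower, and over Prkca-high members 0 and 3 of 27. The higher genes included Grik2, Grin2a and Grm8. Each of these was lower in Prkca-high than in Prkca-low members, such as Grik2 at 74.3 and 283 CPM, and each was higher in amacrine nuclei than in either, with Grik2 at 622 CPM there. Neto1, a kainate receptor partner, was lower at 126 against 510 CPM, and Grin3a at 32.7 against 151 CPM. Gria1, an AMPA receptor subunit, was at 693 against 499 CPM and Grm5 at 750 against 1064 CPM.

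The ribbon and vesicle release list had 2 of 35 genes higher and 1 lower, and 1 and 2 over Prkca-high members. Slc1a7, the glutamate transporter and anion channel EAAT5 of photoreceptor and bipolar terminals, was higher in both, at 328 CPM over all members and 395 CPM in Prkca-high members against 57.5 CPM, although OFF cone bipolar nuclei held 554 CPM and rods 360 CPM. Rph3a was at 148 against 53.0 CPM and was called over all members alone. Unc13c, a vesicle priming factor, was lower at 768 against 1961 CPM. The ribbon gene Ctbp2 was at 225 against 286 CPM, Bsn at 310 against 363 CPM and the vesicular glutamate transporter gene Slc17a7 at 300 against 428 CPM.

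Calcium and potassium channel genes gave calls on both sides. Of 32 calcium genes, 2 were higher and 2 lower, and 2 and 7 over Prkca-high members. Cacna2d3 was at 819, 715, 700 and 766 CPM in pieces 1 to 4 against 292 CPM, and Cacna1i, a T-type channel, at 174 CPM in Prkca-high members against 63.7 CPM. The ryanodine receptor genes Ryr2 and Ryr3 were lower, at 471 and 405 CPM against 1076 and 924 CPM. Of 30 potassium, HCN and sodium channel genes, 4 were higher and 1 lower, and 2 and 3 of 29 over Prkca-high members. Kcnh5, an ether-a-go-go channel, was at 611, 660, 715 and 787 CPM in pieces 1 to 4 against 79.5 CPM. Kcnt2, a sodium-activated channel, was at 30.9 CPM in rod bipolar nuclei and had 1 UMI in ON cone bipolar nuclei. Kcnb2 was lower, at 804 against 2186 CPM.

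Of the neuromodulator receptors, 2 of 15 were called higher and 2 lower, and 3 and 5 of 13 over Prkca-high members. Adrb1, the beta-1 adrenergic receptor, was at 130, 96.4, 89.6 and 140 CPM in pieces 1 to 4 against 5.64 CPM in ON cone bipolar nuclei, with amacrine nuclei at 71.1 CPM. The dopamine receptor gene Drd2 was at 300 CPM in Prkca-high members against 109 CPM and was called there alone, and Drd1 at 19.4 against 73.3 CPM was called lower there. Tacr1 and Tacr3, receptors for tachykinins, were lower in both, at 24.3 and 45.4 CPM against 72.2 and 166 CPM. Of 6 immediate early genes tested, 0 were called in either direction.

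Rod RNA was also higher in the members. The rule asked for Prkca UMIs in members and 0 in ON cone bipolar nuclei, and rods also held Prkca. This comparison is therefore uneven by rule, and the part of the rule in it was not tested. Of 12 rod genes, 4 were called higher and 0 lower than in ON cone bipolar nuclei: Pde6a at 160 against 33.3 CPM, Pde6b at 116 against 25.4 CPM, Sag at 382 against 82.9 CPM and Cnga1 at 40.9 against 10.2 CPM. The 12 genes summed to 1727 CPM in rod bipolar, 796 CPM in ON cone bipolar and 35877 CPM in rod nuclei. Prkca-high members also gave 4 higher and 0 lower, and the sum was 1741 CPM in Prkca-high and 1704 CPM in Prkca-low members. Over the 5 ranges of Prkca, from lowest to highest, Pde6b was at 93.3, 178, 144, 117 and 47.4 CPM. Its part in the results was not tested.

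Position was the other readout that the rule did not use. Depth was measured inward from a line through nuclei with at least 3 Rpe65 UMIs, in coordinate units of the chip whose length was not given in the sources used here, and nuclei from 150 units outside to 1000 units inside the line formed the retinal band. Of the 672 members at angles with such a line, 72.9% lay in the band. Their median depth was 378 units (95% interval by ranks 365 to 396), between rods at 145 units and amacrine nuclei at 495 units. ON cone bipolar nuclei had a median of 383 units (355 to 414), OFF cone bipolar nuclei 429 units, and Prkca-high members 360 units (343 to 388).

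The order of depths held in part by piece. Rod bipolar medians were 452, 306, 291 and 437 units in pieces 1 to 4, so pieces 2 and 3 were shallower, as were their amacrine nuclei at 423 and 417 units against 634 and 572 units. In each piece the rod median lay nearest the line, then the rod bipolar and the OFF cone bipolar median, although the last rests on 15 to 25 nuclei a piece. By piece rod bipolar nuclei lay 52.6 to 69.4% of the way from the rod to the amacrine median. ON cone bipolar medians were 447, 293, 329 and 446 units, shallower than rod bipolar nuclei in pieces 1 and 2 and deeper in pieces 3 and 4, so these neighbours in the order had no fixed side. Prkca-low members had medians of 511, 374, 298 and 453 units, against 429, 291, 289 and 424 units in Prkca-high members, and the intervals of the pair overlapped in each piece.

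**Figure D5:**
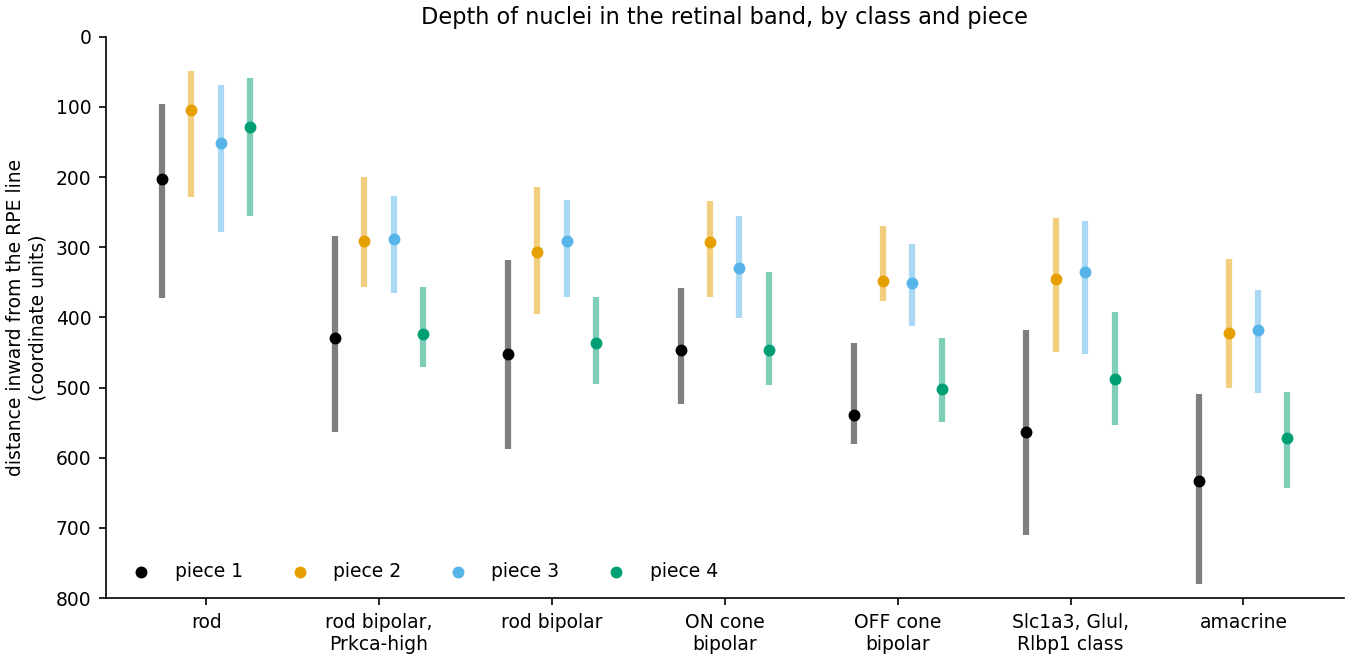
Distance inward from the Rpe65 line (coordinate units, axis running downward) of nuclei in the retinal band, by class and piece. Points are medians and bars run from the lower to the upper quartile. Rod bipolar medians lie between those of rods and amacrine nuclei in each of the 4 pieces and overlap those of ON cone bipolar nuclei.

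Rod bipolar nuclei had each other as neighbours more often than their share of all kept nuclei. Among the 20 nearest nuclei of a rod bipolar nucleus, rod bipolar nuclei were 2.01 times as frequent as over all kept nuclei, with 1.99, 2.03, 1.85 and 2.06 times in pieces 1 to 4. ON cone bipolar nuclei were 1.78 times as frequent beside them, amacrine nuclei 1.68 times and rods 0.813 times. A shared layer and a closer grouping cannot be told apart in these ratios.

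The share of rod bipolar nuclei differed between pieces, at 6.19% (5.51 to 6.94%), 4.57% (3.95 to 5.25%), 5.90% (5.17 to 6.69%) and 4.71% (4.1 to 5.37%) of kept nuclei in pieces 1 to 4. The interval of piece 1 lay above those of pieces 2 and 4, and that of piece 3 overlapped all others. Set against ON cone bipolar nuclei of the same piece, the numbers were nearer, at 1.74, 1.83, 2.10 and 1.78 rod bipolar nuclei for each. The share of nuclei in the matrix need not be that of the tissue.

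Between pieces, 141 genes were called over all members, 1.1% of 12821 tested, with the lower bound in the highest piece reaching 2 times the upper bound in the lowest. Most leaders were genes of other tissues: Ttn was at 68.6, 1211, 21.6 and 207 CPM, and the lens crystallin Cryaa at 22.3, 296, 14.4 and 25.6 CPM, both highest in piece 2. Thinned to 1000 UMIs a nucleus the count was 10, and over members of at most 8000 UMIs it was 54. Prkca-high members gave 105 genes, 0.933% of 11257, and those within the retinal band 41 genes, 0.433% of 9476. Among these 41 were Xist, at 41.5, 37.7, 5.30 and 1524 CPM, and the Y-linked Uty, at 106, 113, 115 and 2.30 CPM.

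The following were picked from the 41 after their values were seen. Pde10a, a phosphodiesterase of cyclic nucleotides found in 228 nuclei, was at 855, 418, 323 and 1045 CPM, high in pieces 1 and 4. In ON cone bipolar nuclei of the band it was at 975, 679, 734 and 638 CPM, without that pattern in piece 4. In the Prkca-high members of the band with at most 8000 UMIs it was at 872, 517, 401 and 1273 CPM. Spink13, a protease inhibitor gene found in 44 nuclei, was at 72.3, 6.28, 7.06 and 73.5 CPM, and amacrine nuclei held 492, 183, 268 and 524 CPM of it. The low values rest on 2 UMIs in piece 2 and 4 in piece 3.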

How the data were processed

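The values analysed are raw UMI counts per gene and nucleus in the deposited expression matrix, and other values, the position of each barcode in chip units, in a deposited table. Tools listed without roles, per the submitters' processing notes, are STAR, fastp and Seurat 4.1.1, with mm10 as build. Annotation, strand, intron counting and how cells were called are not stated there. Members, lists and the 6 class rules were chosen with earlier results of these data known, and the line at 3000 CPM, the retinal band and the pieces after seeing these data. Counts were summed per class with Python 3.11.15, numpy 2.4.6 and scipy 1.17.1, and given as CPM with exact 95% Poisson intervals. A gene was called when the bounds of 2 classes differed by at least 2 times at 20 or more UMIs. The procedure was tested on Poisson counts simulated without variation between nuclei, so that test does not cover such variation. No p-value was computed. Named genes are the rule genes, list members, the 15 higher and 12 lower genes of largest ratio of bounds against ON cone bipolar nuclei, the 12 leading genes over the 6 classes and between pieces, and, chosen after their values were seen, the genes beside Prkca and those found in many nuclei between pieces. Pieces were assigned by the nearest of 4 fitted ring centres. Of the list symbols, Lect1 was not found under that name. Gene positions and promoters came from RefSeq (GRCm38.p6), matched by symbol. Some genes are not reported here.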

Additional observations from a re-analysis of the deposited data

How the results depend on the processing

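No paired analysis was possible because neither library belongs to a group. Of 90 alternative values of 9 results, 57 stayed within 1.5 times of a count, or within the interval or piece range of a value. The share of rod bipolar nuclei, 5.34%, was 6.07% with at least 500 genes, 4.73% with 4 Prkca UMIs and 4.55% with 8 cascade UMIs. It was 3.75% for Prkca-high members and 2.57% without nuclei holding at least 2 amacrine or 2 glia UMIs.

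That last setting gave 306 lower genes, 78 highest and a neighbour ratio of 1.69. With a ratio of bounds of 3, 98 genes were higher, 23 lower, 18 highest and 76 different between pieces. With 50 UMIs 85 differed between pieces. Thinned to 1000 UMIs, 120 were higher, 107 of them shared with the 227, and 10 differed between pieces. Prkca-high members gave 212 lower and 64 highest genes and a depth of 360 units. Members of at most 8000 UMIs (207 were deeper) gave 210 lower, 65 highest and 54 between pieces. The retinal band alone, with fewer nuclei, gave 132 higher, 50 lower and 45 between pieces. These 3 settings were chosen after seeing the data. The neighbour ratio was 2.35 with 10 and 1.59 with 50 neighbours, and the depth 295 units over all nuclei at covered angles.

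Leaving out each piece in turn gave depths of 353 to 409 units, shares of 5.03 to 5.59%, 193 to 230 higher, 83 to 101 lower and 27 to 35 highest genes, and neighbour ratios of 1.98 to 2.06. Of 336 list genes tested, 79 were at least 2-fold higher and 44 lower. Thinned to 1000 UMIs 50 were higher, and by the mean of CPM over nuclei 68 were lower. The share of all genes past this 2-fold cut was not computed, so these counts cannot show an excess in the lists. Other causes of these differences were not tested. Depth limits genes under 20 UMIs, which have no call.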
